A study of Mus musculus with 18 samples.

Results

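The circadian clock genes described here are *Ciart*, *Bhlhe40*, *Bhlhe41*, *Per1*, *Per2*, *Per3*, *Cry1*, *Cry2*, *Nr1d1* and *Dbp*, which are 10 of the 78239 genes in the deposited count tables. They were chosen by name, as repressors and outputs of the clock, with their response to *nsHif1a* in these libraries already known. The difference between *nsHif1a* and eGFP is therefore given for them as a description, without a test. A list of 23 other clock genes, also drawn up with earlier results of these data known, was tested in the same fits. All 10 genes and all 23 others passed the filter on low counts in retina, and in cells all 10 and 21 of the 23 passed.

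The study compared *nsHif1a*, a mouse HIF1A that is changed so that it is not degraded in normal oxygen, with eGFP in 2 experiments. In vivo, an AAV with the rod-specific mouse opsin promoter was injected under the retina of wild-type mice at postnatal day 29 to 32. Whole retinas were taken 3 weeks later, with 5 libraries per group, and the labels do not say whether each came from a separate mouse. The strain is C57BL/6J per the labels and 129S6 per the study's methods. The virus reaches only a part of the retina and the promoter only rods, so that each retinal library also holds RNA of untransduced rods and of all other retinal cells. In vitro, 661W cells, a mouse line with properties of cone photoreceptors, were transfected in normal oxygen with plasmids that carry *nsHif1a* or eGFP behind the CMV promoter, and 4 libraries per group were made from cells harvested after 20 h. The animals were kept under 14 h of light and 10 h of dark, and the time of day at which retinas or cells were taken is not given in the sources used here.

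The clock is a feedback loop of transcription. The activators CLOCK (or its relative NPAS2) and BMAL1 bind E-boxes and switch on the *Per* and *Cry* genes, *Nr1d1*, *Dbp*, *Ciart* and the *Bhlhe* genes. PER and CRY proteins, CIART (also called CHRONO) and the proteins of *Bhlhe40* and *Bhlhe41* (DEC1 and DEC2) then repress CLOCK-BMAL1. REV-ERBα, the product of *Nr1d1*, represses *Bmal1*, and DBP is an activator that acts on D-boxes. The retina holds a clock of its own, and HIF1A belongs to the same family of bHLH-PAS proteins as CLOCK and BMAL1, with a core recognition sequence that resembles the E-box.

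Because the clock factors and HIF1A recognise short and similar sequences, the letters that lie before the start sites of these genes are shown first. The 300 bases before the start of the canonical transcript were searched in GRCm39 on both strands for the E-box CACGTG, the HIF cores ACGTG and GCGTG, the D-boxes TTATGTAA and TTACGTAA, and the RORE core AGGTCA. Every CACGTG also contains ACGTG. These stretches are called promoters below, but each overlaps annotated exons of other transcripts, in places by few bases. For *Cry1* all 300 bases are exon of another *Cry1* transcript. Up to 212 bases for *Ciart* and 121 for *Bhlhe41* are exon of another protein-coding transcript of the same gene. For *Dbp* 151 bases are exon of a different gene, *Car11*. The windows below hold all E-boxes that were found, the ACGTG match of *Bhlhe41*, a gene with 1 of the largest differences, and the D-boxes, while the windows of *Cry2*, *Nr1d1* and *Dbp*, which hold other matches, are not shown. Capitals mark the matches, as read on the strand of the gene.

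*Ciart*, chr3:95789574-95789603, minus strand: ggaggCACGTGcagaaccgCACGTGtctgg
*Ciart*, chr3:95789639-95789668, minus strand: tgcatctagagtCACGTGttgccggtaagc
*Bhlhe40*, chr6:108636397-108636426, plus strand: tccgggcCACGTGaagcgtCACGCcccgcg
*Bhlhe41*, chr6:145811489-145811518, minus strand: gaaagccaaaggcCACGTcctcggttctgc
*Per1*, chr11:68989230-68989259, plus strand: actcaccccttaacgaCACGTGggccctca
*Cry1*, chr10:85020970-85020999, minus strand: gaaACGTGaggtgccggtggtCACGTGggg
*Per2*, chr1:91387153-91387182, minus strand: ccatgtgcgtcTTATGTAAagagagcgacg
*Per3*, chr4:151129262-151129291, minus strand: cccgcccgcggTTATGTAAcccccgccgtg
*Per3*, chr4:151129309-151129338, minus strand: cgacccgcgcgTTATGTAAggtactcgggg

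*Ciart* held 3 E-boxes in this window, and 13 of 21710 promoters of protein-coding genes (0.0599%) held 3 or more. *Bhlhe40*, *Per1* and *Cry1* held an E-box each, so that 4 of the 10 promoters had one, against 6.96% of all promoters of the same length. The HIF core ACGTG lay in 8 of the 10 promoters, against 19.7% of all, and GCGTG in 7 of 10, against 34% of all. In the windows printed above, CACGC and CACGT are these cores on the opposite strand. The D-box TTATGTAA lay in the promoters of *Per2* and *Per3*, 2 of 10 against 0.995% of all, and TTACGTAA, held by 0.12% of all promoters, lay in 0 of the 10. The RORE core lay in 1 of the 10, that of *Dbp*, against 15.9% of all promoters. These matches describe letters only, and no binding was measured.

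Library totals ranged from 12898220 to 17809585 counts over the 18 libraries, at which 3 counts correspond to 0.168 to 0.233 CPM, the share of a gene in the library's counts on a common scale. All CPM values are scaled by TMM within an experiment. *Hif1a* itself, to which the transgene's reads can be assigned, was at 668 ± 26.1 CPM (SD, n = 5) in eGFP retinas and 687 ± 31.6 CPM (n = 5) in *nsHif1a* retinas. In 661W cells it was at 157 ± 6.79 CPM (n = 4) with eGFP and 1561 ± 384 CPM (n = 4) with *nsHif1a*. Of 7 known HIF1 target genes, all 7 were called higher in retina and 6 of 7 in cells, where 1.99% and 1.27% of all genes were called. The 9 rod markers summed to 34850 to 49221 CPM in the retinal libraries, but to 11.8 to 16.98 CPM in 661W cells, and the 7 cone markers to 0.976 to 2.25 CPM in 661W cells, and no rod marker had more than 156 counts in a library of the line, in which the defining photoreceptor genes are thus low.

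The retinal libraries stood apart in a way that bears on the clock genes. The X-inactivation transcript *Xist* had at least 19492 counts in all 5 *nsHif1a* retinas and in eGFP retinas 1 and 2, and at most 3 counts in eGFP retinas 3, 4 and 5. These last 3 libraries alone had counts on Y chromosome genes, 2701 to 3509 each. The groups therefore differ in *Xist* class as well as in the vector, and each retinal log2FC of a clock gene under *nsHif1a* below is also given for the libraries with *Xist* alone (2 eGFP against 5 *nsHif1a*), but the difference between the experiments was not computed on them. In the 661W experiment, replicates 1 and 2 stood apart from replicates 3 and 4, and for the 10 genes values within these sets are given where they differ from the value over all replicates by more than the SD between replicates, and for *Dbp*.

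Without *nsHif1a*, the clock genes were at very different levels. Per kilobase of exon, *Nr1d1* was highest in eGFP retinas, at 74.1 ± 9.35 CPM per kb (SD, n = 5), and its range overlapped that of *Dbp*, the next in order, at 64.1 ± 19.9 CPM per kb. *Cry2* followed at 23.7 ± 1.80 CPM per kb, apart from its neighbours on both sides. *Per3*, *Bhlhe40*, *Bhlhe41* and *Cry1* lay between 12.9 and 16.4 CPM per kb, and neighbours in this order had overlapping ranges. *Per1* (9.97 ± 0.894 CPM per kb) stood apart from both neighbours. *Per2* (4.73 ± 0.691) and *Ciart* (2.98 ± 1.19) were lowest and overlapped.

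In eGFP-transfected 661W cells *Nr1d1* was again highest, at 23.8 ± 1.91 CPM per kb (SD, n = 4), but *Dbp* was among the lowest, at 1.16 ± 0.235 CPM per kb. *Bhlhe40*, *Per1*, *Cry1* and *Cry2* followed *Nr1d1* in this order, from 8.21 to 2.66 CPM per kb, each apart from its neighbours. *Bhlhe41*, *Dbp*, *Ciart*, *Per2* and *Per3* lay between 0.767 and 1.53 CPM per kb, and neighbours overlapped throughout. Between the eGFP groups, all 10 genes were called higher in retina, from a log2 fold change (log2FC) of 0.69 for *Per1* to 5.81 for *Dbp* (SE 0.48, limma adjusted *p* = 7.07e-10). In this comparison 81.3% of all genes tested were called and 46.1% were called higher in retina, so that a call on its own says little about these genes. Tissue and culture, injection and transfection, and the experiments themselves cannot be told apart here.

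*Ciart*, the repressor CHRONO (ENSMUSG00000038550.11, chromosome 3, 95785815 to 95789991), had the largest difference of the 10 genes in both experiments. In retina its level was 10.9, 8.66, 4.70, 5.75 and 4.59 CPM in eGFP libraries 1 to 5 and 14.2, 17.3, 13.4, 16.1 and 22.6 CPM in *nsHif1a* libraries 1 to 5. Every *nsHif1a* retina lay above every eGFP retina, and the 2 highest eGFP values are those of the libraries with *Xist*. The log2FC of *nsHif1a* against eGFP was 1.35 (SE 0.22) with all 10 libraries and 0.75 (SE 0.20) with the libraries that have *Xist*.

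In 661W cells *Ciart* was at 2.58, 2.27, 3.12 and 2.33 CPM with eGFP and at 13.0, 10.5, 10.6 and 9.66 CPM with *nsHif1a*. The groups were far apart, and both sets of replicates showed it. The log2FC was 2.07 (SE 0.15), which is a 4.20-fold difference, with 2.26 (SE 0.23) in replicates 1 and 2 and 1.88 (SE 0.21) in replicates 3 and 4. The counts behind these levels were small in eGFP cells, from 31 to 53 per library.

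*Bhlhe40* and *Bhlhe41* encode the paralogous repressors DEC1 and DEC2, which bind E-boxes themselves. In retina *Bhlhe40* (ENSMUSG00000030103.12, chromosome 6, 108636626 to 108644502) was at 69.3, 74.7, 66.8, 75.8 and 70.7 CPM with eGFP and at 89.5, 97.3, 88.2, 97.7 and 109 CPM with *nsHif1a*. The groups did not overlap and, in contrast to *Ciart*, the eGFP libraries with and without *Xist* were mixed in order. The log2FC was 0.41 (SE 0.06), and 0.40 (SE 0.08) in the libraries with *Xist*.

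In cells *Bhlhe40* was at 37.5, 35.4, 43.2 and 42.0 CPM with eGFP and at 80.4, 79.3, 73.2 and 68.3 CPM with *nsHif1a*. The groups were far apart, with a 1.91-fold difference and a log2FC of 0.93 (SE 0.08). It was larger in replicates 1 and 2 (1.13, SE 0.06) than in replicates 3 and 4 (0.73, SE 0.06), a difference between the sets that was not tested. The effect in retina minus that in cells was -0.50 (SE 0.10) on the log2 scale.

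*Bhlhe41* (ENSMUSG00000030256.12, chromosome 6, 145803969 to 145811430) was at 109, 101, 84.2, 80.4 and 82.4 CPM in eGFP retinas and at 120, 132, 123, 123 and 155 CPM in *nsHif1a* retinas. As for *Ciart*, the groups did not overlap and the eGFP libraries with *Xist* were the 2 highest of their group. The log2FC was 0.52 (SE 0.09), and 0.30 (SE 0.08) in the libraries with *Xist*. In cells it was at 8.11, 8.30, 12.8 and 11.9 CPM with eGFP and at 16.5, 21.5, 25.3 and 24.9 CPM with *nsHif1a*. Replicates 3 and 4 were higher than 1 and 2 in both groups, the groups did not overlap, and the log2FC was 1.09 (SE 0.19).

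The *Per* genes encode the PERIOD proteins, the negative limb of the loop together with the cryptochromes. *Per1* was at 75.3, 78.2, 67.2, 86.2 and 74.7 CPM in eGFP retinas and at 101, 93.0, 83.4, 90.3 and 104 CPM in *nsHif1a* retinas. *Per2* was at 30.6, 34.8, 25.9, 25.4 and 25.5 CPM with eGFP and at 45.4, 46.0, 39.3, 36.2 and 33.7 CPM with *nsHif1a*. *Per3* was at 121, 130, 101, 100 and 107 CPM with eGFP and at 125, 115, 99.3, 101 and 107 CPM with *nsHif1a*. For *Per1* and *Per2* a single library kept the groups from separating, whereas the *Per3* groups lay on top of each other. The log2FC was 0.28 (SE 0.07) for *Per1*, 0.55 (SE 0.11) for *Per2* and -0.02 (SE 0.08) for *Per3*. In the libraries with *Xist* these values were 0.27 (SE 0.08), 0.31 (SE 0.12) and -0.21 (SE 0.08).

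In 661W cells the log2FC of *Per2* and *Per1* differed between the sets of replicates, a difference that was not tested. *Per2* was at 5.28, 6.29, 5.41 and 5.41 CPM with eGFP and at 8.33, 10.8, 5.09 and 5.69 CPM with *nsHif1a*. Only *nsHif1a* replicates 1 and 2 lay above the eGFP range, and the log2FC was 0.70 (SE 0.17) in these replicates and -0.01 (SE 0.17) in replicates 3 and 4. *Per1* was at 49.4, 50.7, 52.0 and 51.6 CPM with eGFP and at 63.6, 69.5, 56.7 and 52.1 CPM with *nsHif1a*, which did not overlap by a narrow margin, and the log2FC was 0.24 (SE 0.08), with 0.40 (SE 0.06) in replicates 1 and 2 and 0.07 (SE 0.06) in replicates 3 and 4. *Per3* was between 3.98 and 7.09 CPM in all 8 libraries, with a log2FC of 0.13 (SE 0.22).

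The cryptochromes *Cry1* and *Cry2* encode the main repressors of CLOCK-BMAL1. *Cry1* was at 52.8, 53.7, 48.8, 42.9 and 46.6 CPM in eGFP retinas and at 59.8, 56.1, 58.3, 55.2 and 54.5 CPM in *nsHif1a* retinas. *Cry2* was at 114, 115, 97.8, 99.4 and 109 CPM with eGFP and at 140, 135, 130, 125 and 125 CPM with *nsHif1a*. Neither pair of groups overlapped, although for *Cry1* the gap was smaller than 1 CPM. The log2FC was 0.23 (SE 0.06) for *Cry1* and 0.29 (SE 0.05) for *Cry2*, and 0.10 (SE 0.05) and 0.20 (SE 0.05) in the libraries with *Xist*.

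In cells *Cry2* was at 11.3, 12.8, 12.5 and 11.6 CPM with eGFP and at 17.3, 17.6, 15.1 and 17.8 CPM with *nsHif1a*, without overlap and with a log2FC of 0.50 (SE 0.08). *Cry1* was at 16.9, 16.7, 17.6 and 15.5 CPM with eGFP and at 19.3, 20.9, 17.4 and 17.7 CPM with *nsHif1a*. Its groups overlapped in replicate 3, and the log2FC was 0.17 (SE 0.08).

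*Nr1d1* and *Dbp* are driven by CLOCK-BMAL1 and had the highest levels per length of the 10 genes in eGFP retinas. *Nr1d1* was at 243, 203, 175, 190 and 198 CPM in eGFP retinas and at 208, 191, 175, 185 and 227 CPM in *nsHif1a* retinas. *Dbp* (ENSMUSG00000059824.13, chromosome 7, 45354512 to 45359627) was at 172, 161, 91.3, 98.5 and 99.7 CPM with eGFP and at 143, 122, 125, 126 and 168 CPM with *nsHif1a*. Of the 5 *nsHif1a* values of *Dbp*, 4 fell in the gap between the 2 eGFP libraries with *Xist* and the 3 without. Its log2FC was 0.16 (SE 0.17) over all libraries and -0.33 (SE 0.10) in the libraries with *Xist*, so that the sign depends on which eGFP retinas serve as controls. For *Nr1d1* the log2FC was -0.06 (SE 0.08), and -0.20 (SE 0.10) in the libraries with *Xist*.

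In 661W cells *Nr1d1* lay between 59.9 and 77.6 CPM in all libraries, with a log2FC of 0.08 (SE 0.09). *Dbp* was at 2.28, 2.85, 1.76 and 2.10 CPM with eGFP and at 4.78, 4.22, 2.46 and 1.24 CPM with *nsHif1a*. The highest and the lowest of the 8 values were both *nsHif1a* libraries. The log2FC was 0.36 (SE 0.38), with 0.82 (SE 0.24) in replicates 1 and 2 and -0.12 (SE 0.34) in replicates 3 and 4.

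**Figure D1:**
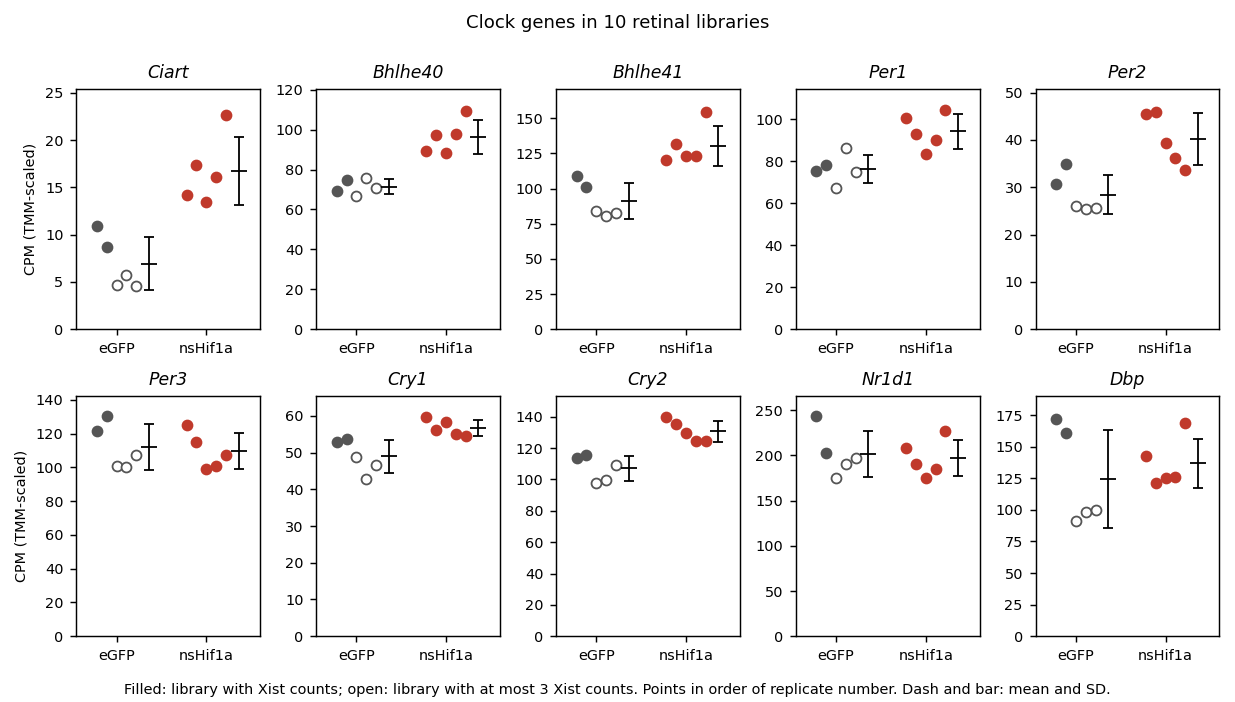
TMM-scaled CPM of the 10 clock genes (y axes) in the 5 eGFP and 5 *nsHif1a* retinas (x axes), one point per library with the mean and SD beside each group, and open points for the 3 libraries without *Xist*. *Ciart*, *Bhlhe40*, *Bhlhe41*, *Cry1* and *Cry2* do not overlap between groups, and the open points are the lowest of the eGFP group for every gene but *Bhlhe40* and *Per1*.

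**Figure D2:**
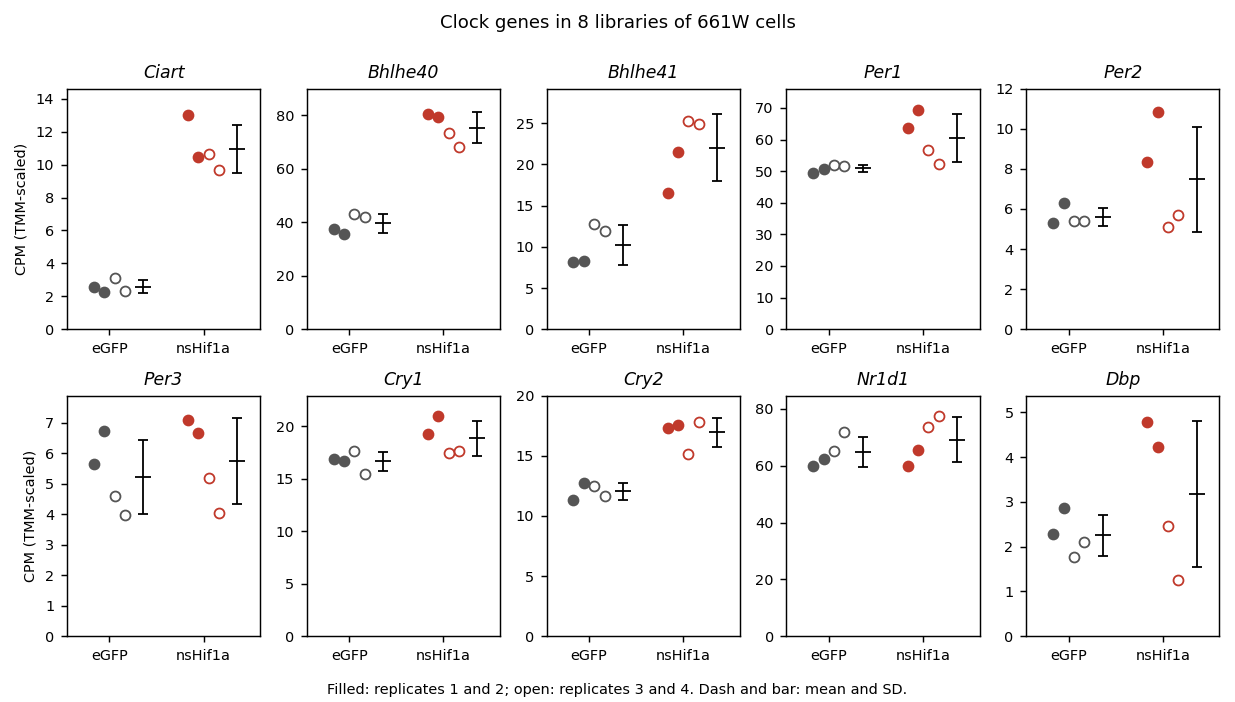
TMM-scaled CPM of the same genes (y axes) in 4 eGFP and 4 *nsHif1a* libraries of 661W cells (x axes), one point per library with the mean and SD beside each group, and open points for replicates 3 and 4. *Ciart*, *Bhlhe40*, *Bhlhe41*, *Per1* and *Cry2* do not overlap between groups, and for *Per2* and *Dbp* replicates 1 and 2 alone lie above the eGFP range.

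Counted by the call rule (adjusted *p* under 0.05 and an absolute log2FC above 0.5 in limma), 3 of the 10 genes were past it in retina, *Ciart*, *Bhlhe41* and *Per2*, where 1.99% of all genes tested were called. With edgeR, with DESeq2 and without quality weights *Per2* was at 0.49 to 0.50, under the fold limit, and 2 genes were past the rule. Leaving out eGFP retina 4, eGFP retina 5 or *nsHif1a* retina 2 left 1, *Ciart*. In 661W cells 3 of the 10 were past it, *Ciart*, *Bhlhe40* and *Bhlhe41*, where 1.27% of all genes were called. These genes were chosen with this contrast known, and nothing is read from these counts. *Per2* with 0.55 and *Bhlhe41* with 0.52 lay just inside the fold limit in retina and *Bhlhe40* with 0.41 just outside it, and in cells *Cry2* with 0.50 lay just outside it. Groups without overlap, *nsHif1a* above eGFP, were found for 5 of the 10 in retina and 5 of the 10 in cells, against 3.25% and 7.51% of all genes tested. The median log2FC of the 10 genes was 0.29 in retina and 0.37 in cells, against -0.0021 and -0.0013 for all genes tested.

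When the retinal fit was limited to the libraries with *Xist*, 0 of the 10 were past the call rule, where 0.703% of all genes were called. The same count of the 10 was found with the *Xist* class as a covariate, where 221 of 18859 genes were called. In levels, all 5 *nsHif1a* retinas lay above both eGFP libraries with *Xist* for 6 of the 10 genes, *Ciart*, *Bhlhe40*, *Bhlhe41*, *Per1*, *Cry1* and *Cry2*. For *Per3*, *Nr1d1* and *Dbp* none did. The share of all genes that lay apart in this way was not computed. As there were only 2 such controls, nothing is read from this count. In these bulk retinas a change in the number of cells of a type and a change in the RNA per cell cannot be told apart. All 9 rod markers had a negative log2FC in *nsHif1a* retinas (median -0.20, 0 called), and their summed level was 44326 to 49221 CPM with eGFP and 34850 to 46625 CPM with *nsHif1a*. The 6 lens γ-crystallins summed to 634 to 2817 CPM with eGFP and 920 to 18956 CPM with *nsHif1a*, where libraries 1, 3 and 4 were high, and the part of either in the clock genes' values was not tested beyond a γ-crystallin covariate, under which *Ciart*, *Bhlhe41* and *Per2* were still past the rule. All 6 microglia markers had a positive log2FC in retina (median 0.89, 0 called), with sums of 24.05 to 118 CPM with eGFP and 42.8 to 116 CPM with *nsHif1a*. Of the 8 immediate early genes, 7 were tested in retina and 8 in cells. In *nsHif1a* retinas 2 were called higher and in *nsHif1a* cells 1, where 1.99% and 1.27% of all genes were called. The 8 genes summed to 75.7 to 249 CPM in eGFP and 127 to 192 CPM in *nsHif1a* retinas, and to 242 to 310 CPM and 292 to 313 CPM in cells, and the part of these lists in the clock genes' values was not tested.

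The 23 other clock genes were tested to see whether they moved with the 10. As the 10 had been set aside with their response known, the count among these 23 does not describe the clock as a whole. In retina 0 of 23 were called by limma, by edgeR or by DESeq2, and 5 of 23 had an unadjusted *p* under 0.05 by each, a share at the background by limma, where 21.7% of all genes had one. In the libraries with *Xist* 0 of 23 were called too, with 5 of 23 at an unadjusted *p* under 0.05 against 15.8% of all genes. Of the 23, 12 had a positive and 11 a negative log2FC, and the median was 0.01. The activators of the loop did not pass the test with either set of controls. *Bmal1* was at 72.3, 73.9, 83.8, 86.2 and 81.8 CPM with eGFP and at 76.0, 81.4, 79.3, 81.3 and 83.2 CPM with *nsHif1a*, with a log2FC of 0.01 (SE 0.05, limma adjusted *p* = 0.93). All 5 *nsHif1a* values lay above both eGFP libraries with *Xist* and, in these libraries, the log2FC was 0.14 (SE 0.05, limma adjusted *p* = 0.22). *Clock* was at 177, 169, 217, 194 and 189 CPM with eGFP and at 172, 189, 182, 195 and 168 CPM with *nsHif1a*, with a log2FC of -0.04 (SE 0.06, limma adjusted *p* = 0.72), and 0.08 (SE 0.06, limma adjusted *p* = 0.54) in the libraries with *Xist*. For *Npas2*, an alternative partner of BMAL1, the values were 3.44, 3.17, 5.94, 6.47 and 6.25 CPM with eGFP and 2.47, 3.97, 4.54, 4.91 and 5.003 CPM with *nsHif1a*, and the log2FC of -0.28 (SE 0.24) did not pass (limma adjusted *p* = 0.54). In the libraries with *Xist* its sign was the other, 0.32 (SE 0.24, limma adjusted *p* = 0.56), with 4 of 5 *nsHif1a* values above both eGFP values.

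By adjusted *p* alone, 3 of the 23 passed in retina, where 5.79% of all genes did. *Nfil3*, the repressor that competes with DBP at D-boxes, had a log2FC of 0.30 (SE 0.07, limma adjusted *p* = 0.035), and its 5 *nsHif1a* retinas lay above all 5 eGFP retinas. *Noct*, a rhythmic phosphatase, had 0.29 (SE 0.07, limma adjusted *p* = 0.043). *Rorb*, a retinal member of the ROR receptors that activate *Bmal1*, had -0.31 (SE 0.06, limma adjusted *p* = 0.0093). None of these reached the fold limit. In the libraries with *Xist* the values were 0.34 (SE 0.10) for *Nfil3*, 0.42 (SE 0.08) for *Noct* and -0.21 (SE 0.07) for *Rorb*, and none passed (limma adjusted *p* of 0.15, 0.053 and 0.19).

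In 661W cells 1 of the 21 tested genes was called, where 1.27% of all genes were. *Nfil3* was at 15.1, 16.7, 17.5 and 16.1 CPM with eGFP and at 27.1, 24.1, 21.8 and 23.2 CPM with *nsHif1a*. The groups did not overlap, and *Nfil3* rose by a log2FC of 0.56 (SE 0.08, limma adjusted *p* = 0.011). In a fit blocked on the replicate the log2FC was 0.54 and the limma adjusted *p* was 0.052, just over the threshold. Without *nsHif1a* replicate 1 or 2 its log2FC was 0.47 or 0.49, under the fold limit. *Rora*, which activates *Bmal1* through ROREs, was at 7.75, 6.81, 8.47 and 8.71 CPM with eGFP and at 10.7, 11.5, 19.01 and 19.2 CPM with *nsHif1a*. It did not overlap either, but the higher values of replicates 3 and 4 widened its error, with a log2FC of 0.86 (SE 0.20, limma adjusted *p* = 0.060). With the replicate block *Rora* was called, at 0.95 (SE 0.13, limma adjusted *p* = 0.029), and it was also called when any 1 of the 4 *nsHif1a* libraries was left out, with log2FC from 0.54 to 1.24. Without *nsHif1a* replicate 3 or 4 calls over all genes also rose, to 1878 of 16171 and 1876 of 16166. When any 1 of the 4 eGFP libraries was left out *Rora* was not called, with log2FC from 0.78 to 0.96 and limma adjusted *p* from 0.060 to 0.13. It was at 0.60 (SE 0.14) in replicates 1 and 2 and at 1.16 (SE 0.12) in replicates 3 and 4. *Bmal1* (-0.02, SE 0.10) and *Clock* (0.02, SE 0.05) did not pass in cells either, with limma adjusted *p* of 0.93 and 0.81. *Npas2*, at 1.29 to 3.04 CPM in all libraries, had a log2FC of -0.40 (SE 0.25, limma adjusted *p* = 0.39).

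The difference between the experiments was tested with an interaction term over all 18 libraries. Of the 23 other clock genes *Rora* alone was called, where 1.24% of all genes were, with an effect in retina minus that in cells of -0.999 (SE 0.20, limma adjusted *p* = 0.015). In retina *Rora* was at 285 to 348 CPM with eGFP and 281 to 326 CPM with *nsHif1a*, and its log2FC there was -0.03 (SE 0.05), and 0.06 (SE 0.05) in the libraries with *Xist*. Without *nsHif1a* cell replicate 3 or 4 the difference was -0.58 or -0.57 and was still called. In these fits calls over all genes rose from 260 of 20999 to 1618 of 21454 and 1616 of 21452. For the 10 genes the same difference, given without a test, ranged from -0.69 (SE 0.34) for *Ciart* and -0.64 (SE 0.22) for *Bhlhe41* to 0.28 (SE 0.26) for *Per2*. Only a part of the retinal cells carried the transgene, and dose, cell type and duration cannot be told apart in this difference.

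**Figure D3:**
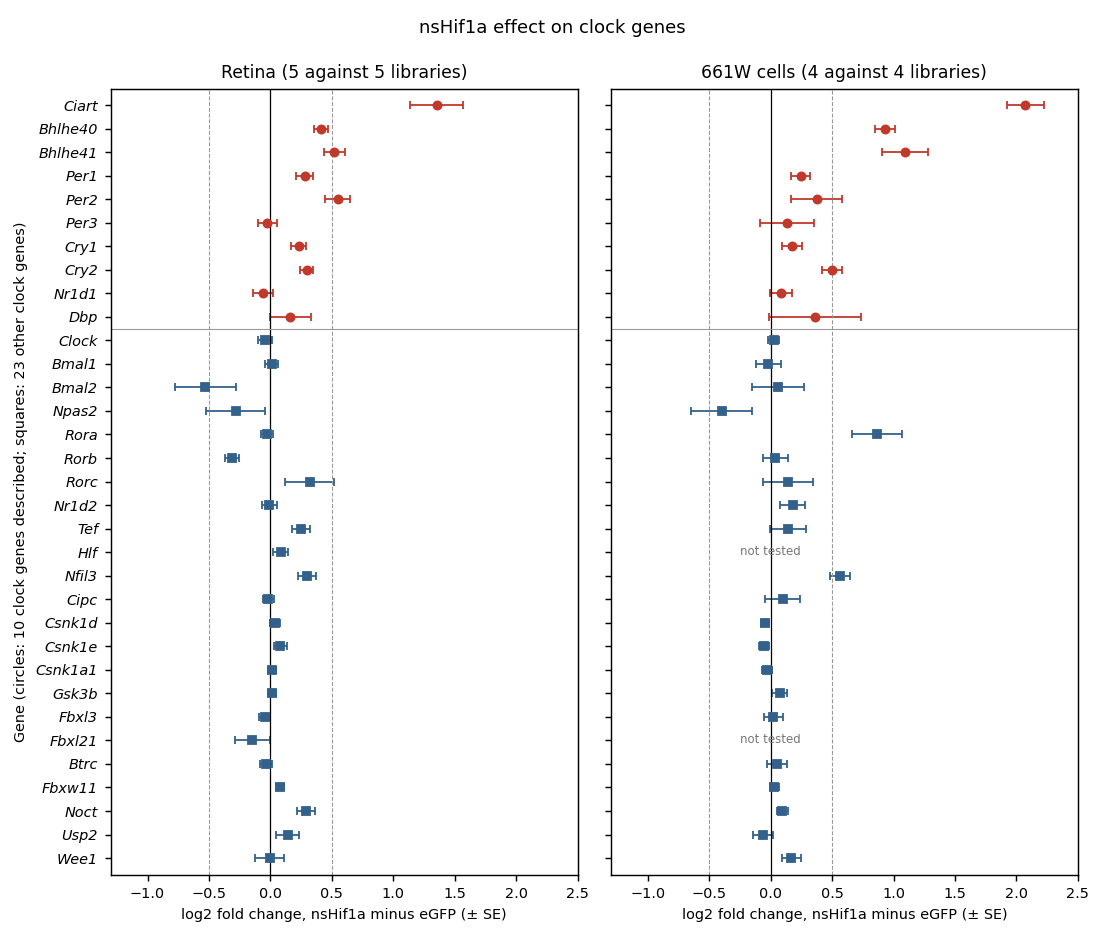
Log2 fold change of *nsHif1a* against eGFP with its SE (x axes) for the 10 clock genes (circles) and the 23 others (squares) in retina and in 661W cells, with the fold limits as dashed lines. *Ciart* lies furthest to the right in both experiments, *Clock* and *Bmal1* lie close to zero in both, and *Rora* lies apart from zero in cells alone.

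The eGFP retinas were then compared among themselves, a comparison that was added after the data were seen and that uses no *nsHif1a* library. The 2 retinas with *Xist* had more *Ciart* and *Dbp* than the 3 without. *Dbp* was at 161 and 172 CPM against 91.3 to 99.7 CPM, a log2FC of 0.77 (SE 0.06, limma adjusted *p* = 0.00012). *Ciart* was at 8.66 and 10.9 CPM against 4.59 to 5.75 CPM, a log2FC of 0.94 (SE 0.17, limma adjusted *p* = 0.024). These 2 of the 10 genes were called, where 1.52% of all genes were. With all 10 retinal libraries in the fit *Dbp* was still called (limma adjusted *p* = 0.0045) and *Ciart* was not (limma adjusted *p* = 0.078). When each eGFP retina was left out in turn, *Dbp* was called every time, with log2FC from 0.72 to 0.82, and *Ciart* only without eGFP retina 2, at 1.12, with 0.78 to 1.05 in the other 4 fits, those without eGFP retina 1, 3, 4 or 5.

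Further clock genes differed between the same eGFP retinas by less. *Bhlhe41* (0.35, SE 0.06), *Per3* (0.28, SE 0.06) and, of the list of 23, the D-box activators *Tef* (0.33, SE 0.05) and *Hlf* (0.22, SE 0.05) passed by adjusted *p* (limma adjusted *p* from 0.0085 to 0.047) but not by fold, all higher with *Xist*. The share of all genes that passed by adjusted *p* alone was not computed for this comparison. *Npas2* was called lower, at 3.17 and 3.44 CPM against 5.94 to 6.47 CPM, with a log2FC of -0.92 (SE 0.19, limma adjusted *p* = 0.038), and this call was lost whichever of the 5 libraries was left out (log2FC from -0.98 to -0.85). *Bmal1* (-0.19, SE 0.06) and *Clock* (-0.18, SE 0.06) had the same sign as *Npas2* but did not pass (limma adjusted *p* of 0.15 and 0.21). In levels, the 2 libraries with *Xist* lay above the other 3 for 8 of the 10 genes and below them for none, against 15.7% of all genes in each direction. *Bhlhe40* and *Per1* were the 2 that overlapped, with log2FC of 0.01 (SE 0.07) and 0.0039 (SE 0.09). Of the list of 23, the libraries with *Xist* lay above the others for 3 genes and below them for 11.

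Other lists moved with this division of the eGFP retinas. The 5 markers of the retinal pigment epithelium summed to 20.3 and 41.5 CPM in the libraries with *Xist* and to 198 to 651 CPM in those without. Of the 4 tested, 2 were called lower with *Xist*. The 6 microglia markers summed to 61.5 and 118 CPM with and to 24.05 to 42.9 CPM without, with 3 called higher with *Xist*. The 7 cone markers summed to 961 and 996 CPM with and to 824 to 862 CPM without, with 1 called higher with *Xist*. The 8 immediate early genes summed to 75.7 and 86.6 CPM with and to 129 to 249 CPM without, and 1 of the 7 tested was called lower with *Xist*. In this comparison 1.52% of all genes were called. *Xist*, the Y chromosome genes and these lists move together in these 5 libraries and cannot be told apart, and the part of these lists in the values of *Ciart* and *Dbp* was not tested.

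**Figure D4:**
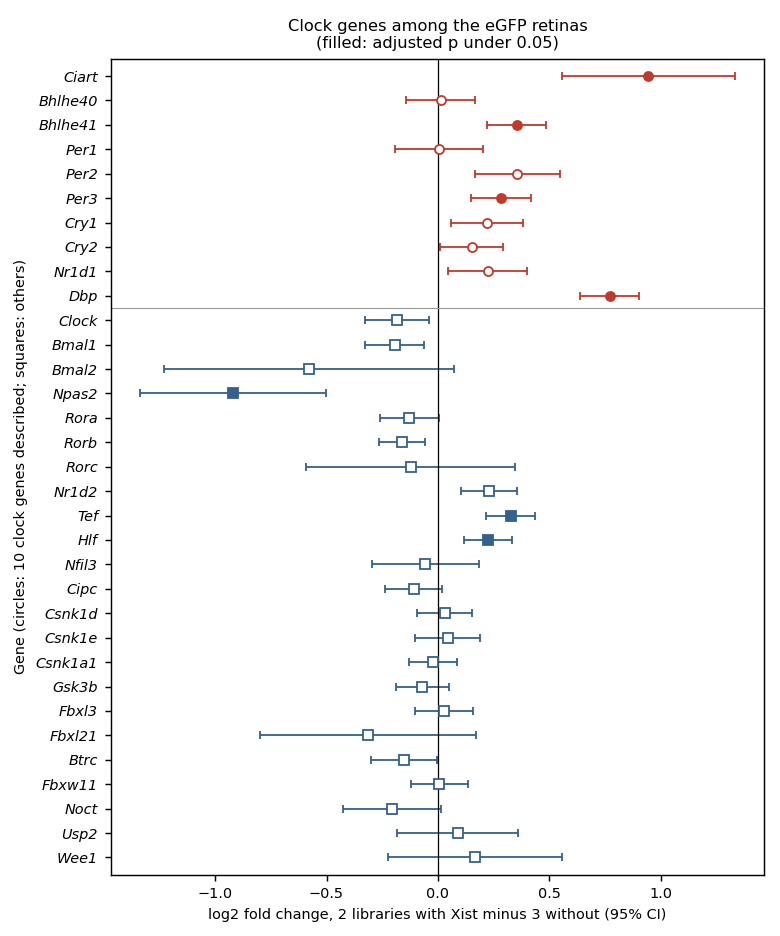
Log2 fold change with its 95% CI (x axis) between the 2 eGFP retinas with *Xist* and the 3 without, for the 10 clock genes (circles) and the 23 others (squares), with filled symbols for a limma adjusted *p* under 0.05. *Ciart* and *Dbp* lie furthest to the right, *Bhlhe40* and *Per1* lie close to zero, and *Npas2* lies furthest to the left.

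To see which genes follow *Ciart* and *Dbp* from library to library, each gene's deviations from its group means were correlated with theirs over the 10 retinal libraries, among 15675 genes above a mean of 1 log2 CPM. The libraries share depth, dissection and the division by *Xist*, and the values are a description. The 5 genes most like *Ciart* were *Uba7*, *Tfr2*, *Dhx58*, *Sin3a* and *AW554918*, with Pearson's r from 0.955 to 0.965. Those most like *Dbp* were *Narf*, *Naa80*, *Irf7*, *Foxred1* and *Trim30a*, with r from 0.952 to 0.990. Among the clock genes, *Bhlhe41* (r = 0.93) and *Dbp* (r = 0.91) were most like *Ciart*, while *Bhlhe40* was at r = 0.48. *Clock* (r = -0.85) and *Bmal1* (r = -0.78) went against *Dbp*.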

How the data were processed

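The authors made stranded libraries from mRNA, ran Rsubread on the paired-end reads with GRCm39 as the genome, and used featureCounts to assign them to genes on the antisense strand. They deposited whole-number counts, 1 table per experiment, without filter or normalization. No member shares exon bases with another gene on its own strand in gencode M39, which held 78168 of the 78239 genes and gave places and exon lengths.

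From the deposited counts, genes were filtered with filterByExpr (minimum count 10), scaled by TMM (edgeR 4.0.16) and fitted with voomWithQualityWeights in limma 3.58.1 under R 4.3.3, which left 18859 genes in retina, 15962 in cells and 20999 in both together. *P*-values were adjusted over all genes tested (Benjamini-Hochberg, two-sided). Intervals are 95%. Floors of 3 counts cover counting error only. The labels name retinas without tying them to animals further, and do not say whether cell libraries are separate cultures, so that *p*-values measure the spread between these libraries.

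The members and lists were chosen with earlier results of these data known. Named were the 10 members, *Bmal1*, *Clock*, *Npas2*, every other clock gene called in an experiment or in their difference, and the 5 genes most like *Ciart* and *Dbp*. *Noct*, *Rorb*, *Tef* and *Hlf* were named after their values were seen. Of the marker lists, limma called 0 members between *nsHif1a* and eGFP for Müller glia, inner neurons, cones and pigment epithelium in either experiment. In cells most of these markers were removed by the filter on low counts. Only 1 of 5 markers of Müller glia, 3 of 8 of inner neurons, 1 of 7 of cones and 0 of 5 of pigment epithelium were tested there, so that the count in cells says little.

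The replicate numbers come from the labels. In 661W cells same-numbered libraries deviated together (r from 0.23 to 0.27 in each of 4 pairs), and the numbers were taken to pair them. In retina they did not (r from -0.15 to 0.14).

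Each result was also computed with DESeq2 1.42.0, with the quasi-likelihood test of edgeR, and with no quality weights, RLE scaling, no filter or a minimum of 30, other call limits, the replicate block, covariates for *Xist* class, γ-crystallin share and replicate set, and leaving out each library. The comparison of eGFP retinas and the fits of single replicate sets were added after the data were seen. The procedure was tested on simulated counts.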

Additional observations from a re-analysis of the deposited data

Results flagged for a closer look

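*Per2* in eGFP replicate 2 of the 661W cells was at 6.29 CPM, while the other 3 eGFP libraries were at 5.28 to 5.41 CPM, and this gap is a larger share of the group's range than Dixon's limit for 4 values allows. It was the 1 such value among 60 groups of a gene and a condition, and chance flags about 1 group in 20. The *Rora* response differed between the experiments by a test of the difference, with an effect in retina minus 661W of -0.999 (SE 0.20, limma adjusted *p* = 0.015).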

How the results depend on the processing

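Between eGFP retina and eGFP cells all 10 clock genes were called under each of 26 alternatives. In the retina, 3 clock genes were past the call rule, and the number was 7 by adjusted *p* alone, 1 at an absolute log2FC above 1, 0 with the *Xist* class as a covariate, 0 in the libraries with *Xist*, and 1 to 3 without single libraries. It was 1, *Ciart*, without eGFP retina 4, eGFP retina 5 or *nsHif1a* retina 2. In 661W cells the number was 3, and 6 in replicates 1 and 2, and 2 to 6 without single libraries, with 6 when *nsHif1a* replicate 3 or 4 was left out. Calls over all genes rose in the same fits, from 203 of 15962 genes to 1984 of 16122 in replicates 1 and 2. Without *nsHif1a* replicate 3 or 4 they were 1878 of 16171 and 1876 of 16166, so that nothing is read from the higher counts of clock genes. Of the other clock genes in retina, 0 were called, as when any single library was left out, and 3 passed by adjusted *p* alone. In 661W cells the 1 called became 0 at an absolute log2FC above 1, 2 with DESeq2, 2 with the replicate set as a covariate, 2 in replicates 1 and 2, and 1 to 2 without single libraries. For the difference between experiments the 1 called, *Rora*, became 0 at an absolute log2FC above 1 and 0 without a filter on low counts, and was 1 when any single library was left out. Calls over all genes rose here too without *nsHif1a* cell replicate 3 or 4. Among the eGFP retinas, the 2 clock genes called became 1 with all 10 retinas in the fit and 1 to 2 without single libraries, and the 1 other clock gene became 0 with DESeq2, 0 without a filter, 0 with all 10 retinas in the fit and 0 when any single library was left out. The cause of these changes was not tested beyond the fewer libraries of some fits.

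With the replicate number as a block, 3 clock genes were past the rule in retina and 3 in cells, and among the others 0 in retina, 1 in cells (*Rora* in place of *Nfil3*) and 1 in the difference. The block changed no other call. In retina same-numbered libraries did not deviate together. Log2FC of the 10 genes stayed within 1 SD of the replicates in 186 of 200 retinal and 167 of 180 cell values. The 14 retinal values beyond it all came from the *Xist* covariate or from the libraries with *Xist* alone. They were those of *Ciart*, *Bhlhe41*, *Per2*, *Per3*, *Cry1*, *Cry2* and *Dbp*. Of all these values, 10 in retina and 11 in cells, for *Per2*, *Per3*, *Nr1d1* and *Dbp*, had the other sign. Counts of 31 to 53 for *Ciart* and 28 to 44 for *Dbp* in eGFP cells limit their precision.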
